A study of Mus musculus with 9 samples.

Results

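The genes described here are 9 acute phase genes of the mouse, Hp, Hpx, Saa1, Saa2, Saa3, Lcn2, Slpi, Orm1 and C3, taken as the probe sets that carry their symbols on an expression array. Of the 9 genes, 7 had a probe set of their own, among 22180 genes with one on the array, and all 7 were among the 15526 genes kept after the dimmest were left out. Saa1 was represented through 1 probe set whose annotation names both Saa1 and Saa2. C3 had no probe set in the annotation used here, so its level was not read and only its promoter was searched. The set was chosen from earlier results of these same arrays, in which Hp stood out in both comparisons and Slpi in that of the treatment groups, together with other genes of the acute phase response. Differences of the 7 genes are therefore given as a description, with the standard error (SE) of the fit and with no test of their own.

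Each of 9 Affymetrix Mouse Gene 2.0 ST arrays, which measure transcript levels with sets of probes, received total RNA of 1 cell line. AZD1208 lines (n = 3) were cell lines made from mice given AZD1208, an inhibitor of the PIM protein kinases, and Vehicle lines (n = 3) from mice given the vehicle. According to the series title these were recurrent, resistant Myc-CaP tumours of castrated mice, and the label ending -DHT on both groups is read here as culture without dihydrotestosterone, an androgen. The parental MYCCaP line, labelled +DHT, has 3 arrays labelled as technical replicates, which were averaged and counted as 1 sample. All groups share the MYCCaP origin, a mouse prostate cancer line driven by a MYC transgene under an androgen-responsive probasin promoter. The sources used here give no dose, duration, strain or age, and do not say whether a line is a clone. A difference between recurrent lines and the parental line combines growth in a castrated mouse, line derivation and the androgen in the medium, which cannot be told apart.

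The deposited values are log2 intensities, so a difference of 1 is a 2-fold change. The 9 arrays had medians between 6.22 and 6.36, and AZD1208 3 had the narrowest interquartile range, 2.87 against 2.98 to 3.12. Epithelial genes were read from 7 probe sets of a list of 10. Their mean value lay between 7.62 and 8.04 in recurrent lines, against 8.16 for the parental sample, with the prostate transcription factors Foxa1 and Hoxb13 above the dim limit of 5.81 and the adhesion gene Epcam below it. Of the 6 tested, 2 had a higher and 4 a lower mean in recurrent lines. All 6 lines were below the parental value for 3 of them, beside 10.8% of all genes, and above it for 0, beside 11.8%. The 3 were the keratin genes Krt19 (-1.52, SE 0.23) and Krt18 (-0.23, SE 0.22) and the cadherin gene Cdh1 (-0.24, SE 0.21), named after their values were seen. For Krt18 and Cdh1 the difference was close to its SE.

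Acute phase proteins are plasma proteins whose synthesis, mainly in the liver, changes during inflammation. Interleukin 6 acting through the receptor chain gp130 and STAT3, and interleukin 1 acting through NF-kB, induce them together with C/EBP transcription factors. Several, among them Lcn2, Slpi and mouse Saa3, are also made by epithelia, macrophages or fat outside the liver.

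Haptoglobin, the product of Hp, binds free haemoglobin and delivers it to macrophages. Hp lies on chromosome 8 (chr8:109575128-109579172, GRCm38.p6). It read 12.26, 11.55 and 11.77 in AZD1208 lines 1 to 3 and 11.52, 10.25 and 10.13 in Vehicle lines 1 to 3, against 6.95, 6.39 and 6.85 on the 3 parental arrays. Every recurrent line was above every parental array, and the lowest line exceeded the parental mean by 3.40. Recurrent lines averaged 11.25 ± 0.86 (SD, n = 6) and the parental line 6.73, a log2 difference of 4.52 (SE 0.51). This was 2nd from the top among 15526 genes. By group the excess over the parental line was 5.13 in AZD1208 lines and 3.90 in Vehicle lines, 35.0-fold and 15.0-fold on the intensity scale. The parental value of 6.73 lay not far above the array medians of 6.22 to 6.36. Whether Hp was detected above background in the parental line was not tested, so the folds are approximate. In bulk RNA such as this, a change in the number of cells that express a gene and a change in the RNA per cell cannot be told apart.

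**Figure D1:**
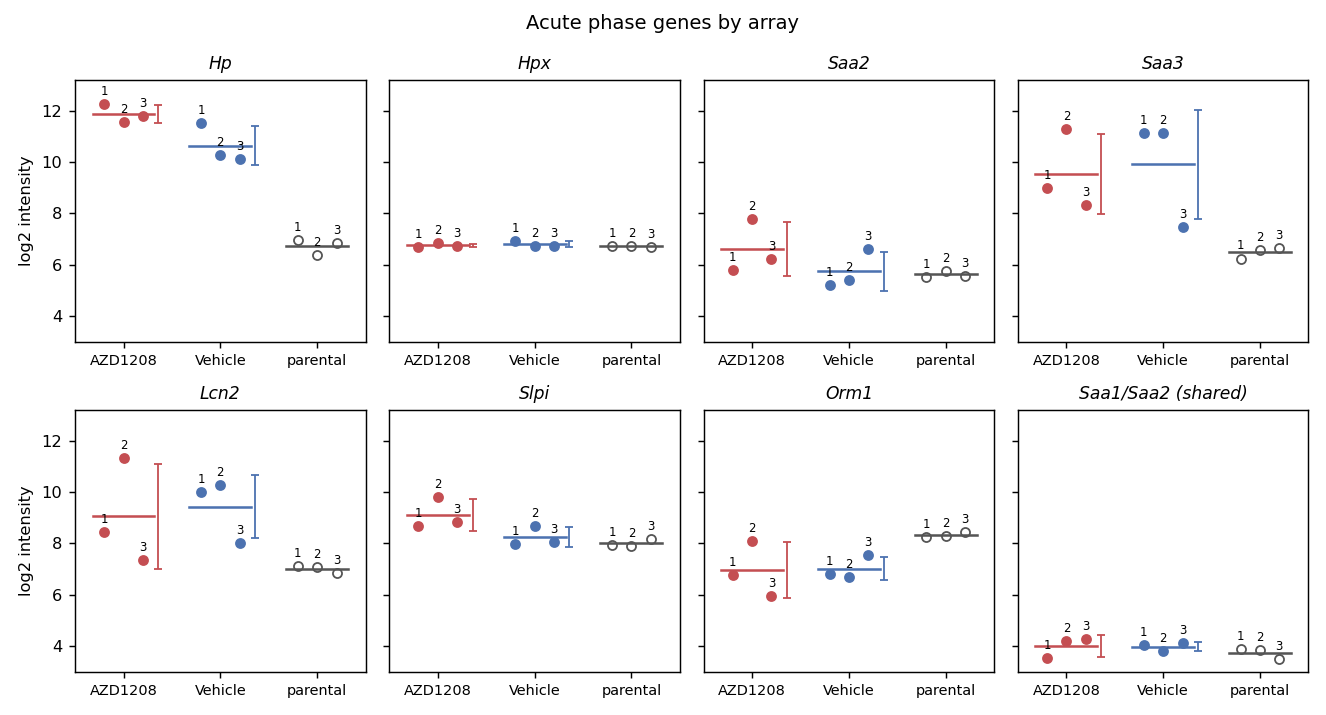
Log2 intensity of the acute phase genes on each array, with AZD1208 lines in red, Vehicle lines in blue and the technical parental arrays as open circles. Digits are replicate numbers, horizontal lines are group means and error bars are the SD over 3 lines. Hp is above the parental arrays in all 6 recurrent lines, Saa3 and Lcn2 vary widely between lines, and Orm1 is below the parental mean in all 6.

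The other haem-scavenging gene of the set was flat. Hpx (chr7:105591611-105600116) encodes hemopexin, which binds free haem. It read 6.69, 6.82 and 6.73 in AZD1208 lines and 6.93, 6.73 and 6.72 in Vehicle lines, against 6.72 in the parental line with a technical SD of 0.02. The groups overlapped, and the recurrent minus parental difference was 0.06 (SE 0.19). These values lay not far above the array medians of 6.22 to 6.36, and whether Hpx was detected above background was not tested. Hpx ranked 14864 of 15526 genes by its SD over the recurrent lines (0.09), and the median gene had an SD of 0.23.

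Saa3 and Lcn2 were above the parental line in every recurrent line, with a spread between lines that few genes exceeded. Saa3 (chr7:46711998-46719615), an inflammatory serum amyloid A protein, read 8.97, 11.29 and 8.33 in AZD1208 lines 1 to 3 and 11.13, 11.12 and 7.46 in Vehicle lines 1 to 3, against 6.48 in the parental line. AZD1208 2, Vehicle 1 and Vehicle 2 were high, and Vehicle 3 lay only 0.98 above the parental value. The mean was 9.71 ± 1.67 (SD, n = 6) in recurrent lines, a difference of 3.23 (SE 1.49) that ranked 6 of 15526 from the top. Lcn2 (chr2:32384637-32387739), or lipocalin 2, captures bacterial siderophores and so withholds iron. It read 8.45, 11.35 and 7.37 in AZD1208 lines and 10.001, 10.26 and 8.01 in Vehicle lines, against 7.01 in the parental line. The same 3 lines were highest, and AZD1208 3 was lowest at 0.36 above the parental mean, where the technical SD was 0.15. Recurrent lines averaged 9.24 ± 1.53 (SD, n = 6), a difference of 2.23 (SE 1.36), ranked 26 from the top. By SD over the 6 lines Saa3 ranked 27 and Lcn2 ranked 39 of 15526 genes. Their ranges over the recurrent lines correspond to 14.2-fold for Saa3 and 15.7-fold for Lcn2.

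The promoters of Saa3 and Lcn2 are shown because these genes had the same 3 lines highest. They are RefSeq promoters of build GRCm38.p6, from 250 bases before to 50 after the start, with both genes on the minus strand, written 5′ to 3′ along the gene, at chr7:46715627-46715926 for Saa3 and chr2:32387690-32387989 for Lcn2. The capitals mark matches to TTGCNNAA, a core of the sequence bound by C/EBP factors, searched on both strands.
Saa3 promoter: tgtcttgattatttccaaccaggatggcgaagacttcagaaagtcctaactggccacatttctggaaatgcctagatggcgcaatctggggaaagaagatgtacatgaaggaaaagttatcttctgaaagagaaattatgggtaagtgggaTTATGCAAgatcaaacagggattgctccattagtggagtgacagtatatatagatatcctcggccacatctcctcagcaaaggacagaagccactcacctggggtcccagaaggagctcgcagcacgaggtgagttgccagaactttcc
Lcn2 promoter: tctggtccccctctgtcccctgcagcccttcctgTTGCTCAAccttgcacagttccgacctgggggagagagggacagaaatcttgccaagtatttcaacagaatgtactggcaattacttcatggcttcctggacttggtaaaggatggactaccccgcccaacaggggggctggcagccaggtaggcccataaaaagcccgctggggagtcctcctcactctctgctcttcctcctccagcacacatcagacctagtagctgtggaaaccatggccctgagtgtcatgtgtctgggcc
The start used for Saa3 lies inside the span given for the gene above. The match begins 99 bases before the start in Saa3 and 216 bases before it in Lcn2. Promoters were in the table for 7 of the 9 genes, Hpx, Saa1, Saa2, Saa3, Lcn2, Slpi and C3, and each of these 7 held 1 match. Of 27025 promoters of the same length, 10.8% held at least 1. TTCNNNGAA, a STAT sequence, was in 0 of the 7 and in 8.47% of all promoters. GGANTTTCC, an NF-kB sequence, was in 0 of the 7 and in 1.23% of all. With shares this low, 0 of 7 is readily reached by genes of any kind, and other forms of either site were not searched. No lack of STAT or NF-kB sites is read from these counts. The matches include that of Hpx, whose level was flat, and those of Saa1 and Saa2, which share their sequence.

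Saa2 was measured near the dim limit. Saa1 and Saa2 are liver serum amyloid A genes that lie side by side on chromosome 7 and are close copies, so that probes for one may read the other. Their promoters, aligned end to end, were 95.3% identical, against 50.2% for Saa2 and Saa3. The promoters of this pair are shown to display that likeness, at chr7:46742931-46743230 on the minus strand for Saa1 and chr7:46751583-46751882 on the plus strand for Saa2, with the C/EBP match in capitals.
Saa1 promoter: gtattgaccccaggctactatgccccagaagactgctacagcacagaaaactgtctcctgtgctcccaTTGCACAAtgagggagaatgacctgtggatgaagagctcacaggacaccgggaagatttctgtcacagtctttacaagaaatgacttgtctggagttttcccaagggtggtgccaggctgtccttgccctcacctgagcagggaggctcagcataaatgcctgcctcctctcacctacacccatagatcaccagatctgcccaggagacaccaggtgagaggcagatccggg
Saa2 promoter: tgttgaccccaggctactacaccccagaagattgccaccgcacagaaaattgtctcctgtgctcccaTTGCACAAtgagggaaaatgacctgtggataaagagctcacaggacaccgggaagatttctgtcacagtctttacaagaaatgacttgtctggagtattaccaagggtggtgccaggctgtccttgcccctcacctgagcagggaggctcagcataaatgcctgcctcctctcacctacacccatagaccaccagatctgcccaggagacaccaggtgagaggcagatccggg
The probe set annotated to Saa2 alone read 5.78, 7.78 and 6.22 in AZD1208 lines and 5.20, 5.40 and 6.60 in Vehicle lines, against 5.62 in the parental line. AZD1208 2 was the highest, Vehicle 1 and Vehicle 2 were below the parental value, and the groups overlapped. The recurrent minus parental difference was 0.55 (SE 0.75), or 0.25 without AZD1208 2. The probe set annotated to both genes stayed between 3.50 and 4.29 on all 9 arrays, with 4.01 ± 0.41 in AZD1208 lines and 3.99 ± 0.16 in Vehicle lines (SD, n = 3 each) and 3.74 in the parental line. It is far below the dim limit and is assigned to neither gene. The 2 probe sets differed in AZD1208 2, where the Saa2 set was high and the shared set was within the range of the other arrays.

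Slpi (chr2:164354070-164356507) encodes a secreted inhibitor of neutrophil elastase and related proteases. It read 8.69, 9.81 and 8.83 in AZD1208 lines and 7.97, 8.68 and 8.06 in Vehicle lines, against 8.02 in the parental line with a technical SD of 0.15. All 3 AZD1208 lines and Vehicle 2 were above the parental value by more than 2 technical SD, and Vehicle 1 and Vehicle 3 differed from it by -0.05 and 0.04. The recurrent minus parental difference was 0.65 (SE 0.44).

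Orm1 (chr4:63344556-63348163), which encodes the acute phase glycoprotein orosomucoid 1, went the other way. It read 6.79, 8.11 and 5.95 in AZD1208 lines and 6.81, 6.70 and 7.54 in Vehicle lines, against 8.32 in the parental line with a technical SD of 0.10. All 6 recurrent lines were below every parental array, AZD1208 2 by the least and AZD1208 3 by the most. The mean was 6.98 ± 0.75 (SD, n = 6) in recurrent lines, a difference of -1.34 (SE 0.69), ranked 25 from the bottom of 15526. Its paralogues Orm2 and Orm3 read 5.79 and 5.14 in the parental line, both under the dim limit of 5.81. A decrease from such levels may be understated. Orm2 passed the filter by its mean over the samples and differed by 0.07 (SE 0.19) between recurrent lines and the parental line.

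**Figure D2:**
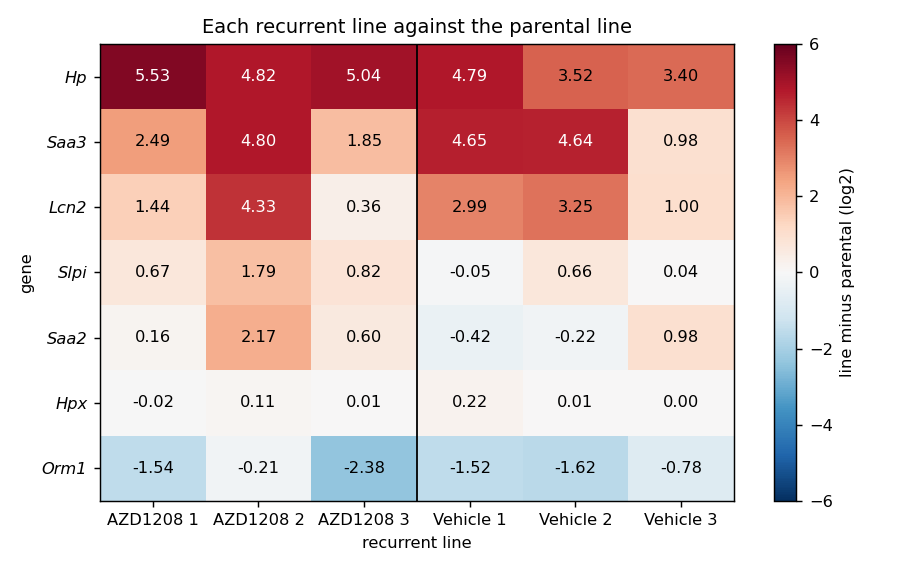
Log2 difference between each recurrent line (columns, AZD1208 lines left of the black line and Vehicle lines right of it) and the mean of the parental arrays, for 7 acute phase genes (rows). Red is above and blue is below the parental line. Hp runs from 3.40 to 5.53 in all lines, whereas Saa3 and Lcn2 are high in AZD1208 2, Vehicle 1 and Vehicle 2 and lower elsewhere.

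Across the set, 6 genes had a higher mean and 1 a lower mean in recurrent lines than in the parental line, with a median difference of 0.65 beside -0.02 over all genes tested. All 6 lines were above the parental value for 3 genes, Hp, Saa3 and Lcn2, as they were for 11.8% of all genes, and below it for Orm1, as for 10.8% of all genes. No gene of the array passed an adjusted p of 0.05 in this comparison, in the set or outside it (limma, 0% of 15526 called, 429 genes at an unadjusted p under 0.05). Nothing is read from these counts for the set, since its choice rested on the same arrays.

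Between the treatment groups, Hp was higher in AZD1208 lines than in Vehicle lines, 11.86 ± 0.36 against 10.63 ± 0.77 (SD, n = 3 each), a log2 difference of 1.23 (SE 0.39). The groups did not overlap, but the lowest AZD1208 line and the highest Vehicle line were only 0.03 apart, while the technical SD of Hp in the parental line was 0.30. Slpi was 9.11 ± 0.61 in AZD1208 lines and 8.24 ± 0.39 in Vehicle lines (SD, n = 3 each), a difference of 0.88 (SE 0.33), with a gap of 0.006 between AZD1208 1 and Vehicle 2. Without AZD1208 2 the Slpi difference was 0.53, and it was 0.55 with array quality weights. Saa2 differed by 0.86 (SE 0.57), with overlapping groups, or by 0.27 without AZD1208 2 and 0.31 with array quality weights.

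The 2 genes that varied most between lines showed no separation by treatment. Saa3 was 9.53 ± 1.56 in AZD1208 lines and 9.90 ± 2.12 in Vehicle lines (SD, n = 3 each), a difference of -0.38 (SE 1.13). Lcn2 was 9.06 ± 2.06 in AZD1208 lines and 9.42 ± 1.23 in Vehicle lines (SD, n = 3 each), a difference of -0.37 (SE 1.03). Both signs turned when single lines were left out. Without AZD1208 3 Saa3 was at 0.22 and Lcn2 at 0.47. Without Vehicle 1 Saa3 was at 0.24, and without Vehicle 2 Saa3 was at 0.23 and Lcn2 at 0.05. Without AZD1208 2 they were at -1.26 and -1.51, and without Vehicle 3 at -1.60 and -1.07. Orm1 differed by -0.07 (SE 0.52) and Hpx by -0.05 (SE 0.14). Of the 7 genes, 2 had AZD1208 lines all above Vehicle lines, as did 1.41% of all genes, and 0 had them all below, as did 1.98%. No gene on the array passed the adjusted threshold (limma, 0% of 15526 called, 81 at an unadjusted p under 0.05). Hp and Slpi were picked on this comparison, so the count says nothing further about the set.

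The acute phase genes did not vary as 1 block among the 6 recurrent lines. Saa3 and Lcn2 were the most alike pair, with a Pearson r of 0.92 and a Spearman rho of 0.89 over the 6 lines, given as a description of points that share their arrays and groups. Hp had r between -0.25 and 0.33 with the other genes. Saa2 had r of 0.72 with Slpi and 0.70 with Orm1, and in all 3 AZD1208 2 was highest. AZD1208 2 was also the highest line for Saa3 and Lcn2. Among 13710 other named genes, those most like Saa3 over the 6 lines were Efna5 (r = 0.982), the plasma copper oxidase gene Cp (0.977) and Rilpl1 (0.976). Those most like Lcn2 were the nuclear noncoding RNA Neat1 (0.993), Cdk14 (0.992) and Ctla2a (0.990). For Hp they were Acaa1b (0.973), Gabre (0.967) and Klhdc7a (0.966), each with a range over the lines below 0.60, where that of Hp was 2.14. Adding the parental sample, Hp was most like Btbd2 (0.981), Cnppd1 (0.972) and Map1lc3a (0.972). Slpi was most like Oasl2 (0.983), Hoxaas3 (0.979) and Yju2 (0.969). Saa2 was most like Sult5a1 (0.986), Megf10 (0.982) and Gata2 (0.982). Orm1 was most like Slc25a51 (0.991), Zfp142 (0.986) and Zscan25 (0.982), and Hpx was most like Tmem167b (0.988), Klk1b27 (0.985) and Abcc1 (0.984). With 6 points, many genes reach such values, and 294 had r over 0.9 with Lcn2 against 16 with Hp.

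Other acute phase proteins were set beside the 9 genes. Of 30 listed, 15 were tested, of which 10 had a higher and 5 a lower mean in recurrent lines, with a median difference of 0.08 beside -0.02 over all genes, and 0 passed the threshold (limma). All 6 lines were above the parental value for 5 of the 15, beside 11.8% of all genes, and below it for 2, beside 10.8%. Agt, which encodes angiotensinogen, differed by 2.88 (SE 1.27) and ranked 10 from the top of all genes, with 10.85, 11.12 and 8.995 in AZD1208 lines and 11.45, 7.69 and 9.07 in Vehicle lines, against 6.98 in the parental line. Serping1, the C1 esterase inhibitor, differed by 2.46 (SE 1.64), with 5.93 in AZD1208 1 and 11.40 in AZD1208 2 at the extremes and 5.91 in the parental line. AZD1208 1 thus lay within the technical SD of 0.23. Cp differed by 1.28 (SE 0.54) and read 11.11 to 12.57 in recurrent lines, against 10.66 in the parental line. The other 2, named after their values were seen, were the fibrinogen chain gene Fgb at 1.12 (SE 1.01) and the lipopolysaccharide-binding protein gene Lbp at 1.06 (SE 0.76). Fgb in Vehicle 2, at 6.08 against 6.02 in the parental line, was also within its technical SD of 0.11. The genes below the parental value in all 6 lines were Itih4 at -0.64 (SE 0.30) and A2m, named after its values were seen, at -0.12 (SE 0.21). Between treatment groups 12 of the 15 were higher and 3 lower in AZD1208 lines, with a median of 0.26, and 0 passed. Over all genes tested 45.2% were higher in AZD1208 lines, with a median of -0.02. Those of smallest p were Orm2 (0.26), the interleukin 1 receptor antagonist gene Il1rn (0.35) and the metallothionein gene Mt2 (0.29).

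Negative acute phase proteins, which fall in inflammation, had 5 genes tested of 8 listed. Of these 2 were higher and 3 lower in recurrent lines, with a median of -0.08, none passed, and the differences lay between -0.19 for Ahsg and 0.08 for Ttr.

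**Figure D3:**
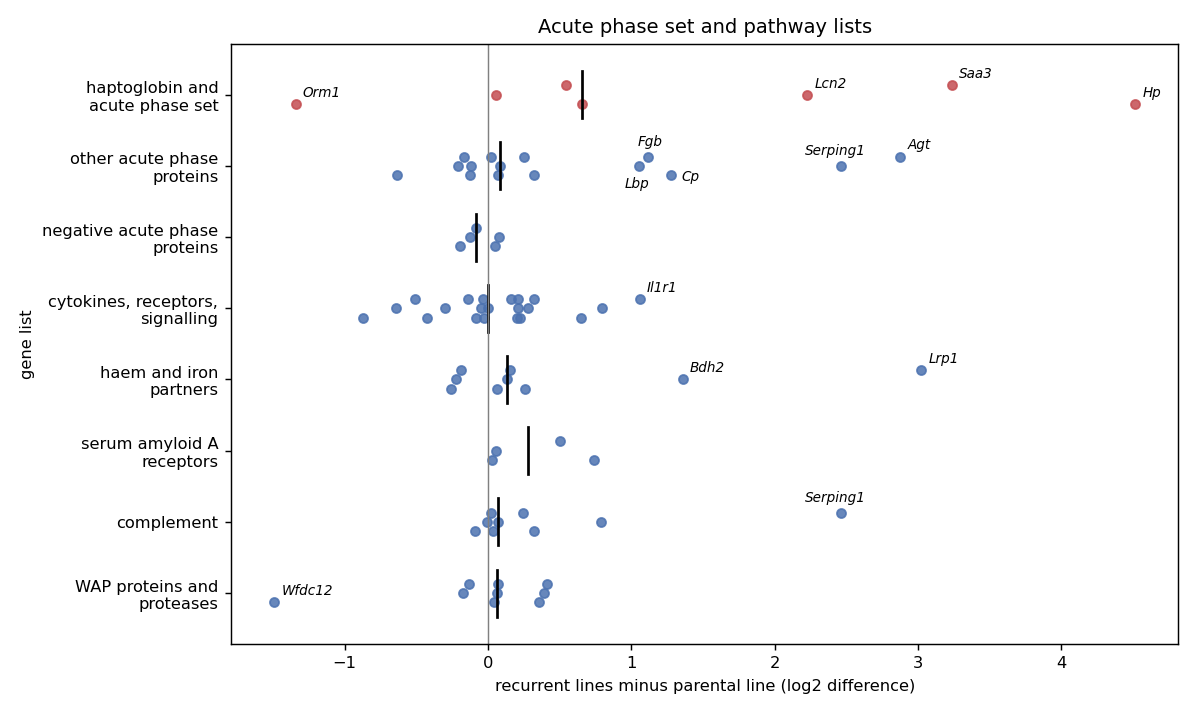
Log2 difference of recurrent lines (n = 6) minus the parental line for each gene tested in the acute phase set (red) and in 7 related lists (blue), with vertical bars at list medians and names on genes beyond 1 in either direction. Hp, Saa3, Lrp1, Agt, Serping1 and Lcn2 lie furthest to the right, and the list medians outside the set lie between -0.08 and 0.28.

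The cytokines, receptors and signalling genes that induce acute phase proteins had 21 of 27 genes tested, 11 higher and 10 lower in recurrent lines, with a median of 0.002, and 0 passed. The interleukin 1 receptor gene Il1r1 differed by 1.06 (SE 0.54) and the transcription factor gene Cebpd by 0.65 (SE 0.34), both above the parental value in all 6 lines. In AZD1208 3, however, Il1r1 read 7.26 against 7.24 in the parental sample, within the technical SD of 0.06. Cebpd read 7.24, 7.49 and 6.86 in AZD1208 lines and 7.54, 6.73 and 6.97 in Vehicle lines, against 6.49 in the parental line. The related factor Cebpa differed by -0.87 (SE 0.46) and the tumour necrosis factor receptor gene Tnfrsf1a by -0.64 (SE 0.29), both below it in all 6 lines. Il6st, which encodes gp130, was named after its values were seen. It differed by 0.80 (SE 0.48) and was highest in AZD1208 2 at 10.81, against 9.53 to 10.07 in the other recurrent lines and 9.11 for the parental sample. Il6 itself was below the dim limit, between 3.56 and 3.73 in recurrent lines, against 3.63 in the parental sample. Stat3 differed by -0.03 (SE 0.22). Its feedback inhibitor Socs3 read 7.68 to 8.62 in recurrent lines, against 8.80 in the parental sample, a difference of -0.51 (SE 0.34). Between treatment groups 11 were higher and 10 lower in AZD1208 lines, 0 passed, and Tyk2 (-0.33), Cebpa (-0.39) and Clcf1 (-0.26) had the smallest p.

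Partners of haem and siderophore handling had 9 of 13 genes tested, 6 higher and 3 lower in recurrent lines, with a median of 0.13. Lrp1, which encodes the receptor that takes up haem bound to hemopexin and many other ligands, read 10.26, 11.32 and 9.26 in AZD1208 lines and 10.69, 9.36 and 9.97 in Vehicle lines, against 7.12 in the parental line. The difference was 3.02 (SE 0.71), ranked 8 from the top, and did not pass (limma, adjusted p = 0.9997). Bdh2, a dehydrogenase gene proposed to act in mammalian siderophore synthesis, differed by 1.36 (SE 1.01) and stood at 10.73 in AZD1208 2, above 7.66 to 8.37 in the other recurrent lines. The haptoglobin-haemoglobin receptor gene Cd163 differed by 0.07 (SE 0.21), with values of 5.59 to 5.96 in recurrent lines, against 5.77 in the parental sample. The Lcn2 receptor gene Slc22a17 differed by -0.19 (SE 0.23) in that comparison, and by 0.31 (SE 0.18) between AZD1208 and Vehicle lines. The biliverdin reductase gene Blvrb (0.26) and the ferritin gene Fth1 (0.15) were above the parental value in all 6 lines, and the transferrin receptor gene Tfrc differed by -0.38 between the treatment groups.

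Receptors of serum amyloid A had 4 of 6 genes tested, all with higher means in both comparisons and none called. Over all genes tested 45.6% had a higher mean in recurrent lines and 45.2% in AZD1208 lines. Tlr2, which encodes an innate immune receptor, differed by 0.50 (SE 0.66) between recurrent lines and the parental line and by 0.77 (SE 0.50) between treatment groups, with AZD1208 2 at 8.73 and the other recurrent lines between 6.60 and 6.85. Tlr4 was at 0.74 (SE 0.61), Ager at 0.05 and Scarb1 at 0.03 against the parental line. Complement genes had 9 of 21 tested, 7 higher and 2 lower, with a median of 0.07 and none called. The chaperone clusterin, Clu, differed by 0.79 (SE 0.29) with all 6 lines above the parental value, and the properdin gene Cfp by 0.24 (SE 0.19). The alternative pathway gene Cfb differed by 0.32 (SE 0.61), with AZD1208 2 at 7.85 against 5.89 to 6.26 in the other recurrent lines and 6.04 for the parental sample.

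Slpi is a WAP domain protein, and 9 of 12 genes listed as WAP proteins, their target proteases and other inhibitors were tested. Of these 6 were higher and 3 lower in recurrent lines, with a median of 0.07 and none called. Wfdc12 differed by -1.49 (SE 0.47), below the parental value of 10.75 in all 6 lines. The progranulin gene Grn (0.41), Cstb (0.36) and Serpinb1a (0.39) were above the parental value in all 6 lines. Wfdc2 was at 6.71, 7.52 and 6.96 in AZD1208 lines and 6.58, 6.17 and 6.70 in Vehicle lines, a difference of 0.58 (SE 0.25) that did not pass (limma, adjusted p = 0.99997).

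**Figure D4:**
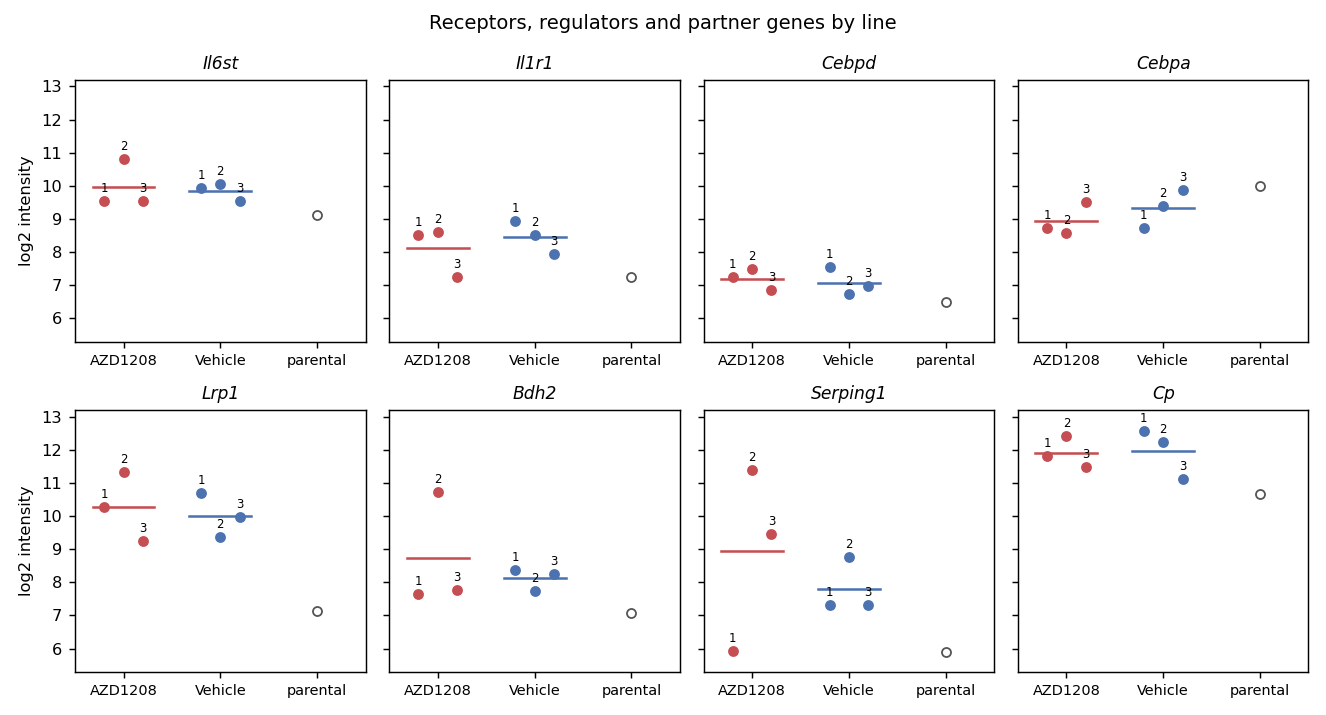
Log2 intensity of 8 receptor, regulator and partner genes in AZD1208 lines (red), Vehicle lines (blue) and the averaged parental sample (open circle), with replicate numbers and group means as lines. Cebpa is below the parental sample in all 6 recurrent lines and the other 7 genes are above it. Il1r1 in AZD1208 3 and Serping1 in AZD1208 1 exceed it by less than the parental technical SD. AZD1208 2 is the highest line for Il6st, Lrp1, Bdh2 and Serping1.

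Markers of other cell types were read in the same arrays, and the count beside each list is of genes with a probe set. By their mean level 3 hepatocyte, 6 neutrophil, 4 macrophage, 2 fibroblast, 2 adipocyte and 2 endothelial markers were below the dim limit. List means that include them may be compressed. Hepatocyte markers, 10 of 10 with a probe set, averaged 6.09 to 6.41 in AZD1208 lines and 6.24 to 6.60 in Vehicle lines, against 6.34 in the parental line, with albumin, Alb, below the dim limit in every sample. Of the 7 tested, 3 had a higher and 4 a lower mean in recurrent lines, with differences from -0.45 to 1.12 and a median of -0.08. All 6 lines were above the parental value for 1 of the 7, beside 11.8% of all genes, and below it for 2, beside 10.8%. Fgb, described above, was above the parental value in all 6, at 8.96 in Vehicle 1 and 8.01 in AZD1208 1 against 6.02, and the urea cycle gene Cps1 reached 8.82 in Vehicle 3 against 7.72 in the parental line. Neutrophil markers, 10 of 10, averaged 5.47 to 5.73 in AZD1208 lines and 5.44 to 5.58 in Vehicle lines, against 5.59 in the parental line, with S100a8 and Ly6g below the dim limit on all arrays. Macrophage markers, 10 of 10, averaged 5.90 to 6.13 in AZD1208 lines and 5.87 to 6.29 in Vehicle lines, against 5.94 in the parental line, and were highest in Vehicle 1, Vehicle 2 and AZD1208 2, the lines high for Saa3 and Lcn2. Among them Lyz2 was at 7.10, 6.97 and 6.42 in those lines and between 4.74 and 5.18 in the others and the parental line, whereas the leukocyte gene Ptprc stayed between 4.49 and 5.12 in recurrent lines, against 4.85 in the parental sample. Fibroblast markers, 10 of 10, averaged 7.02 to 7.94 in AZD1208 lines and 6.98 to 7.37 in Vehicle lines, against 6.55 in the parental line, and were highest in the same 3 lines. The list did not move together, with 4 of its 8 tested genes higher and 4 lower in recurrent lines. Postn (4.16, SE 1.61), Pdgfra (1.68, SE 0.66) and Fbln2 (1.17, SE 0.44) were above the parental value in all 6 lines, and the collagen genes Col1a1 (-0.08), Col1a2 (-0.18) and Col3a1 (-0.09) and the surface antigen gene Thy1 (-0.21) had lower means. The part of macrophage and fibroblast markers in the levels of Saa3 and Lcn2 was not tested. Adipocyte markers, 5 of 6, averaged 5.85 to 6.46 in AZD1208 lines and 6.26 to 6.40 in Vehicle lines, against 6.61 in the parental line. The fatty acid binding protein gene Fabp4 read 6.28 to 8.58 in recurrent lines against 9.71 in the parental line, and the other 4 genes, Adipoq, Plin1, Cidec and Lep, differed by only -0.09 to 0.12. Endothelial markers, 8 of 8, averaged 5.80 to 6.06 in AZD1208 lines and 5.77 to 5.91 in Vehicle lines, against 5.96 in the parental line.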

How the data were processed

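The authors deposited log2 intensities, 1 per probe set and array, made with oligo per the submitters' processing notes; the sources used here state neither its version nor the background correction, normalization and summary. No scan batch or detection call was used, so dim differences can be understated, and the number of arrays limits the precision.

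Of 41345 probe sets, 23521 had 1 symbol in the platform annotation, 1814 several and 16010 none, and 0 symbols changed through Entrez identifiers. The probe set of highest mean stood for a gene, and the lowest 30% of 22180 genes by mean were left out. Parental arrays were averaged, and 7 samples were fitted with lmFit and eBayes of limma 3.58.1 (R 4.3.3), group as only term, two-sided, with Benjamini-Hochberg adjustment over 15526 genes and a threshold of 0.05. The lone parental sample is assumed to vary like the lines. The labels call the lines biological replicates without saying that each came from a mouse of its own, so p-values reflect the spread among 3 lines a group. Both comparisons use the same recurrent lines.

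The acute phase genes and the gene lists were chosen with earlier results of these data known. Named beside them are, per list, the 4 genes of smallest p against the parental line and the 3 between treatments, and the 3 most alike per gene by Pearson r. Promoters came from a RefSeq table of GRCm38.p6 and were aligned globally with Biopython 1.88. On simulated data for 15526 genes a log2 change of 1 was found in 32.8% of cases between treatments and 13.4% against the parental line, and a log2 change of 2 in 85.1% and 64.2%. The noise was normal and independent, with each gene's own variance within the groups, and the changed genes were drawn at random. The median gene had an SD of 0.23 over the recurrent lines, against 1.67 for Saa3 and 1.53 for Lcn2. These shares do not apply to genes that vary so much, where a missing call does not exclude a large change.

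Lines with the same replicate number in the labels deviated together across genes, at r of 0.146, 0.118 and 0.532 for numbers 1 to 3, each over the 0.1 taken as pairing. The basis is these data, since no label states a pairing, and AZD1208 2 and Vehicle 1 correlated at 0.264. The main fit did not use the numbers as pairs, and a block by replicate number was run as an alternative. Other alternatives were quantile normalization, centring, array quality weights, the dim filter, averaged probe sets, single lines left out and the parental arrays taken singly or as 3 samples.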

Additional observations from a re-analysis of the deposited data

Results flagged for a closer look

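Over the 6 recurrent lines, 7 of 44 genes looked at had 1 line far from the rest, where chance flags about 1 in 20 groups. None was among the 7 acute phase genes. That rate holds for independent genes with normal, untied values. The genes here share their lines, most were picked by small p, and Apoa1 and C1qc hold tied values. No excess over chance is therefore read from the count. AZD1208 2 was the highest for Bdh2 (10.73, next 8.37), Tlr2 (8.73, next 6.85) and Cfb (7.85, next 6.26), and the lowest for Ahsg (5.51, next 6.05). AZD1208 1 was the highest for Scarb1 (11.66, next 11.25) and the lowest for Apoa1 (6.76, next 6.95). Vehicle 2 was the lowest for C1qc (5.86, next 6.19). Wfdc2 was above the parental value of 6.70 in all AZD1208 lines and below it in all Vehicle lines. AZD1208 1 at 6.71 and Vehicle 3 at 6.70 lay at that value to within the technical SD of 0.00694. The group difference of 0.58 did not pass (limma, adjusted p = 0.99997), and the opposite movement from the parental line was not tested.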

How the results depend on the processing

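No gene was called between AZD1208 and Vehicle lines in any alternative run (limma), the replicate block included (0 genes), and that block changed no call. Against the parental line 0 genes were called except with array quality weights (1 gene, not Hp, whose adjusted p was 0.052) and with the parental arrays as 3 separate samples (156 genes, Hp among them at adjusted p = 0.000705), which treats technical spread as biological. The median difference of the 7 acute phase genes between AZD1208 and Vehicle lines was -0.05, and ranged from -0.083 to 0.474 with single lines left out, so it has no settled sign. Against the parental line it ranged from 0.48 to 0.76 with single lines left out, and was 1.44 with the lowest 50% of genes left out, which drops Saa2. Of 201 recomputed differences of single genes, 192 kept their direction. The 9 that turned were all between treatments and all with 1 line left out. For Orm1 the difference ranged from -0.65 to 0.43, for Saa3 from -1.60 to 0.24, for Lcn2 from -1.51 to 0.47 and for Hpx from -0.083 to 0.023. With single lines left out Hp ranged from 0.98 to 1.67 between treatments and from 4.30 to 4.64 against the parental line. Values near the dim limit, those of Saa2 above all, may be compressed.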
